A study of Mus musculus with 25 samples.

Results

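The genes of respiratory complex I that the counts table held were taken by name, as every gene whose mouse symbol begins with Ndufa, Ndufb, Ndufc, Ndufs or Ndufv, and this gave 46 of 13641 genes. Of these, 38 were subunit genes and 8 were Ndufaf genes, which encode assembly factors. All 46 passed the filter on low counts and were tested, and the smallest count of any member in any library was 305 reads (Ndufs5 in VF_2w 3). The rule reads gene symbols and no measured value, but the set was chosen with earlier results of these data known. The 25 bulk libraries came from hematopoietic stem cells, gated as Lin−Sca1+cKit+CD48−CD150+ and taken from the bone marrow of mice that had received marrow of 4 donor genotypes 16 weeks before tamoxifen. The donors were labelled SclCre;GFP (here WT), SclCre;V617F;GFP (VF), SclCre;V617F;IL-1b-/-GFP (Il1bKO) and SclCre;V617F;IL-1R1-/-GFP (Il1r1KO), so that every label names the Cre and GFP, and all but WT name V617F, the JAK2 mutation of myeloproliferative neoplasms, carried here on a human JAK2 construct. Cells were taken 2 weeks after tamoxifen was begun (4 libraries of each genotype) or at 4 weeks (VF, Il1bKO and Il1r1KO with 3 libraries each, and no WT). The recipients' own genotype is not given in the labels, and marrow cells of the recipient outside the engrafted donor cells would not carry the donor alleles. The Cre is named for Scl, a gene active in blood stem cells.

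Complex I is the entry point of the respiratory chain: it takes electrons from NADH, passes them along a flavin and a chain of iron-sulphur clusters to ubiquinone, and pumps protons across the inner mitochondrial membrane. It is built from a matrix arm, with the N module that oxidises NADH and the Q module that reduces ubiquinone, and a membrane arm with a proximal and a distal part. Most subunits are encoded in the nucleus, and the mt-Nd genes of the mitochondrial genome encode the core of the membrane arm. Assembly factors help to build the complex and are not part of the finished enzyme. Long-term blood stem cells are known for relying little on respiration while quiescent.

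Library totals ran from 21990959 to 40178173 reads, with 11871 to 13491 genes above 0. The library Il1bKO_4w 5 stood apart, with the most reads, the fewest genes and a score of 224.5 on the first principal component (26.3% of the variance), where the other libraries lay between -36.2 and 17.3. Il1b had 0 reads in all Il1bKO libraries, against 46 to 84 in Il1r1KO and 1 to 391 in VF at 4 weeks, but only 0 to 4 in WT, 0 to 30 in VF and 0 to 32 in Il1r1KO at 2 weeks. Il1r1 reads in the Il1r1KO libraries (271 to 882) overlapped those of VF (190 to 625), so that summed over the whole gene they did not separate the receptor knockout from the others; reads per exon are not analysed here. The libraries labelled WT had 0 to 1 reads of CreERT2 although their label names the Cre, against 5382 or more in the mutant libraries, and their GFP reads ran from 83 (WT_2w 3) and 1345 (WT_2w 4) to 14960 and 27442. Of the 13 stem cell markers, all were in the table, with a summed level of 2546 to 5181 CPM. Defining markers of B cells (Cd79a, Pax5), T cells (Cd3e, Cd3d, Cd3g) and macrophages (Adgre1, C1qa) were not among the genes of the table, while 3 of 7 B lineage markers were, with a summed level of 20.9 to 58.1 CPM, and 2 of 7 macrophage and dendritic markers, with 5.54 to 40.7 CPM. The 2-week and 4-week samples were handled as 2 batches, per the labels, so week and batch cannot be told apart. In sorted bulk cells, a lower level of an RNA can come from fewer cells that carry it or from less of it per cell, and these cannot be told apart.

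The members were well expressed and were spread over 18 chromosomes. Levels are given here as normalised CPM (reads scaled to the library total, with TMM factors) and, where genes are set against each other, as CPM per kilobase of the shortest principal transcript. Ndufa4 had the highest level, 564 CPM per kilobase (255 CPM, 187 to 433 over the 25 libraries). It carries a complex I name but is counted today with complex IV. The median of the subunits was 121 CPM per kilobase, with a range of 24.5 (Ndufb4) to 564. The Ndufaf factors were lower, with a median of 23.5 CPM per kilobase and a range of 18.0 (Ndufaf5) to 46.1 (Ndufaf2).

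**Figure D1:**
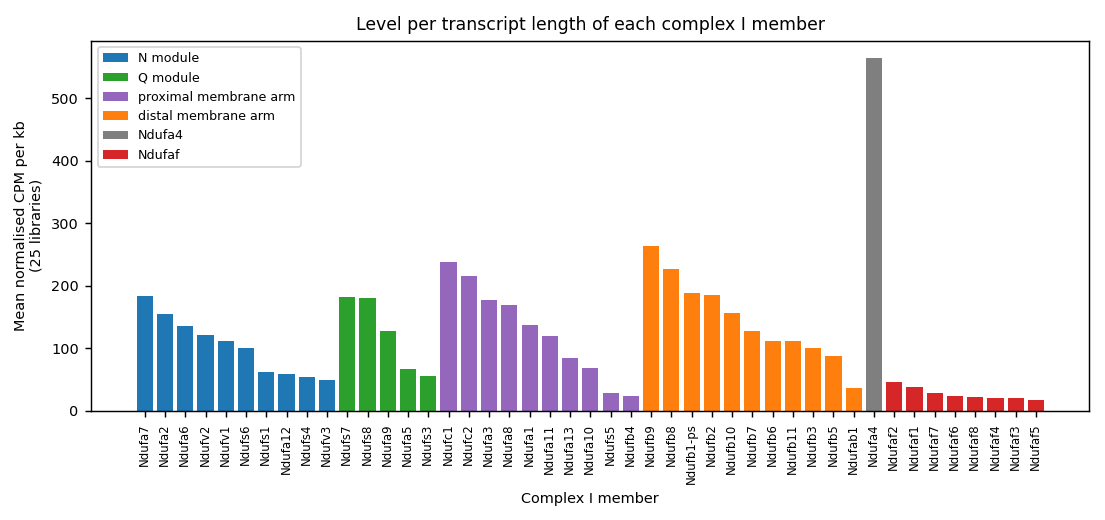
Mean level of 45 members over 25 libraries, in normalised CPM per kilobase of the shortest principal transcript, by place in the complex. Ndufa4 stands highest at 564 and the 8 Ndufaf factors lie between 18.0 and 46.1.

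Within the matrix arm, the flavoprotein subunits Ndufv1, which binds the flavin and NADH, and Ndufv2, an iron-sulphur protein, were at 111 and 122 CPM per kilobase. The iron-sulphur subunit Ndufs1 was at 62.4. Of the Q module core, Ndufs7 and Ndufs8, which carry the last clusters of the chain, were at 182 and 180, and Ndufs3 at 55.6 CPM per kilobase. These core subunits thus ran from 55.6 to 182 CPM per kilobase, although the enzyme holds them in equal number. In the membrane arm the highest levels were those of Ndufb9 (264), Ndufc1 (238) and Ndufb8 (226), and the lowest were those of Ndufb4 (24.5) and Ndufs5 (28.6 CPM per kilobase). Ndufb4 and Ndufs5 are 2 of 8 members with a processed pseudogene at least 95% identical over at least 200 bases of their transcript, and reads shared with such a copy may be lost or misplaced. The 8 were Ndufa12, Ndufab1, Ndufb11, Ndufb3, Ndufb4, Ndufs3, Ndufs5 and Ndufs6, with a median of 57.1 against 121 CPM per kilobase for the other 38. None of these copies had a row of its own in the table. Ndufb2, Ndufc1 and Ndufab1 have principal transcripts of very unequal length, and with the longest in place of the shortest their levels would be 19.3, 59.98 and 15.2 in place of 186, 238 and 37.4 CPM per kilobase.

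Some members share exons with a neighbour on the other or the same strand, and the libraries were unstranded. The largest shares of a member's exons were 65.7% for Ndufaf2 (with B230220B15Rik), 39.0% for Ndufb6 (with Smim27), 29.98% for Ndufa13 (with Tssk6) and 19.5% for Ndufb9 (with Gm49356). Reads from such stretches cannot be assigned to 1 of the genes from these counts, so values for these 4 genes are uncertain to that extent. Ndufb1 stood in the table as Ndufb1-ps. Ndufa4l2 and the copies Ndufa11b, Ndufab1-ps, Ndufb4c and Ndufs6b were not among its genes.

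Most members had their highest and lowest values in the same few libraries. Reads of the 46 genes made up 0.357% (WT_2w 1) to 0.644% (Il1r1KO_4w 5) of all gene reads. Il1r1KO_4w 5 had the highest level of 39 members, Il1bKO_4w 5 of 6 (among them Ndufaf1, Ndufaf5 and Ndufa13) and Il1r1KO_4w 7 of 1. WT_2w 1 and Il1bKO_2w 4 each had the lowest level of 15 members. With each member divided by its own mean over the 25 libraries, the median over the 38 subunits lay between -0.35 (WT_2w 1) and 0.73 (Il1r1KO_4w 5) on the log2 scale, and the other 4-week libraries lay between 0.06 and 0.23.

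**Figure D2:**
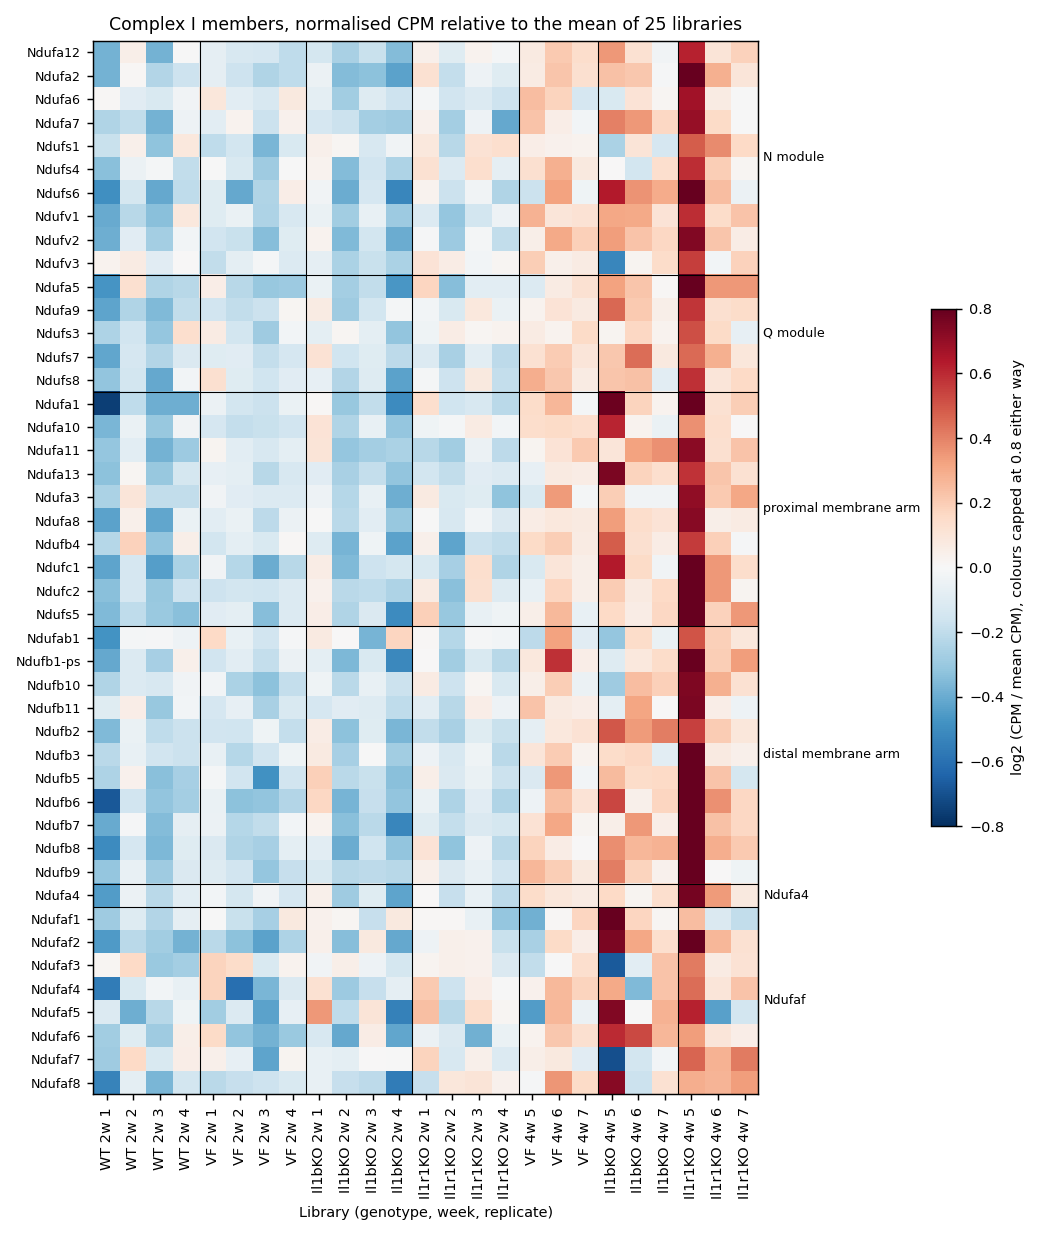
Level of 45 members (rows, by place in the complex) in each of the 25 libraries (columns, by group), as log2 of normalised CPM over the member's mean, with colours capped at 0.8. The 4-week libraries at the right are mostly above the mean, and Il1r1KO_4w 5 is highest for 39 members.

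Between 2 and 4 weeks, which is also the difference between the batches, the subunits were higher at 4 weeks in every mutant genotype. In VF, 37 of 38 subunits had a higher fitted level at 4 weeks, with a median log2 fold change of 0.23 (1.18-fold). In Il1bKO 36 of 38 were higher, with a median of 0.34 (1.26-fold), and in Il1r1KO 38 of 38, with a median of 0.46 (1.38-fold). The median over all 13630 tested genes was -0.003, -0.02 and -0.02 in the same order. In all, 35 subunits were higher in each of the 3 genotypes. By the edgeR quasi-likelihood test with Benjamini-Hochberg adjustment over all genes, 0 of 46 members passed in VF (0.022% of all genes passed, and 9 subunits and 0 Ndufaf factors were at an unadjusted p under 0.05 against 8.48% of genes). In Il1bKO 2 of 46 passed (0.748% of all genes, and 0.301% as higher), and in Il1r1KO 12 of 46 (2.46% of all genes, and 1.67% as higher). All of these were subunits and all were higher at 4 weeks, while 0 of 8 Ndufaf factors passed in any genotype. The unadjusted p was under 0.05 for 24 subunits and 4 Ndufaf factors in Il1bKO (19.1% of all genes) and for 32 and 2 in Il1r1KO (19.3%).

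The Il1r1KO count rests on single libraries. Without Il1r1KO_4w 5 it was 0 and the median of the subunits was 0.24, while 38 of 38 subunits were still higher, 13 of them at an unadjusted p under 0.05. Of all genes, 10 passed without that library, against 335 with it, and 1639 were at an unadjusted p under 0.05, against 2632. The loss was thus not particular to the members. Their count was also 0 without Il1r1KO_2w 2, 3 or 4, 1 without Il1r1KO_2w 1 and 24 without Il1r1KO_4w 7. In Il1bKO the count was 0 without Il1bKO_4w 5, Il1bKO_2w 2 or Il1bKO_2w 4, 1 without Il1bKO_2w 3, 4 without Il1bKO_4w 6 and 10 without Il1bKO_4w 7. It also moved with libraries outside the comparison, which are in the same fit, and the cause was not tested. It was 12 without Il1r1KO_4w 5 (299 of all genes passed, against 102 with all libraries) and 5 without Il1r1KO_4w 7. Without the 3 libraries VF_4w 6, Il1bKO_4w 5 and Il1r1KO_4w 5, the counts were 0, 2 and 0 in VF, Il1bKO and Il1r1KO (14, 128 and 119 of all genes). The subunit medians were then 0.19, 0.30 and 0.25 in the same order.

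**Figure D3:**
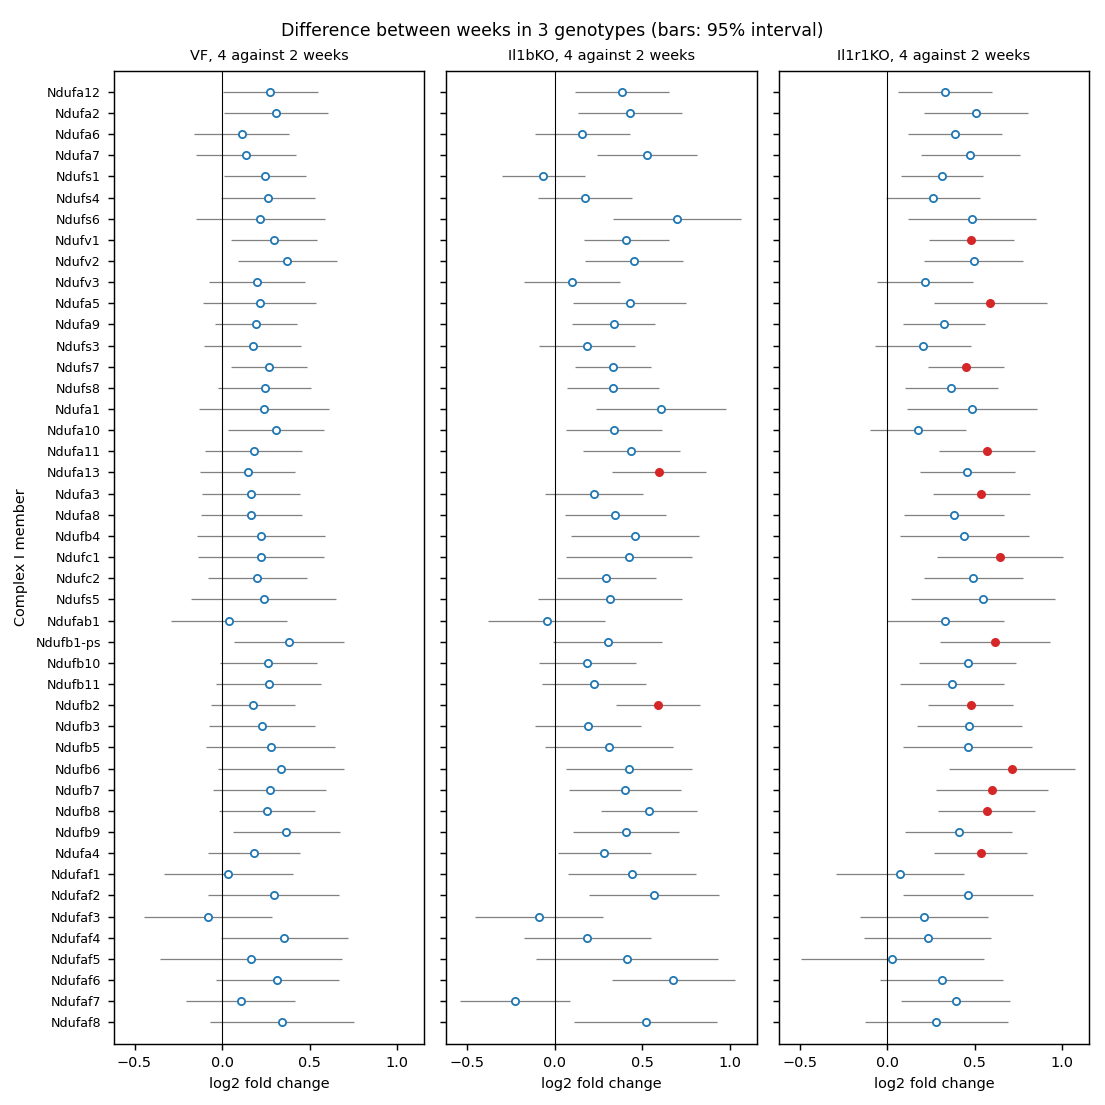
Log2 fold change of 45 members between 4 and 2 weeks in VF, Il1bKO and Il1r1KO, with 95% intervals of the edgeR fit. Filled red points passed the adjusted threshold (0, 2 and 12 members), and nearly all points lie right of 0.

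By place in the complex, the N module had 0, 0 and 1 members past the threshold in VF, Il1bKO and Il1r1KO, with medians of 0.25, 0.40 and 0.43. The Q module had 0, 0 and 2, with medians of 0.21, 0.33 and 0.34. The proximal membrane arm had 0, 1 and 3 (medians 0.21, 0.39 and 0.49) and the distal membrane arm 0, 1 and 5 (medians 0.27, 0.31 and 0.47). Ndufa4 made up the count of 12 in Il1r1KO. Every place was thus higher at 4 weeks in its median in each genotype, and differences among the places were not tested.

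Ndufb2, a small subunit of the distal arm, was the one member that passed in both knockouts. At 2 weeks its level was 87.9, 67.1, 79.1 and 65.4 CPM in the Il1bKO libraries and at 4 weeks 119, 107 and 112 CPM. All 3 later libraries lay above all 4 earlier ones, and the log2 fold change was 0.59 (SE 0.12, adjusted p = 0.0221 by edgeR). In Il1r1KO it went from 73.6, 70.5, 78.8 and 74.6 to 124, 97.1 and 90.02 CPM, a log2 fold change of 0.48 (SE 0.12, adjusted p = 0.036 by edgeR). In VF it was 76.1, 75.5, 82.5 and 74.1 at 2 weeks and 80.2, 89.4 and 91.7 CPM at 4 weeks, where the groups overlapped.

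Ndufa13, a subunit of the proximal arm also known as Grim19, rose in Il1bKO from 99.9, 89.2, 93.2 and 85.5 to 179, 120.5 and 117 CPM. The high value of 179 is that of Il1bKO_4w 5, and the log2 fold change was 0.60 (SE 0.13, adjusted p = 0.0356 by edgeR), or 0.37 without that library. In Il1r1KO it went from between 92.96 and 99.96 to between 116 and 159 CPM without passing the test.

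In Il1r1KO the largest fold change of a member that passed was that of Ndufb6, a distal arm subunit. Its level was 71.001, 62.1, 69.1 and 62.3 CPM at 2 weeks and 148, 95.01 and 82.6 CPM at 4 weeks (log2 fold change 0.71, SE 0.17, adjusted p = 0.036 by edgeR). The library at 148 is Il1r1KO_4w 5, and without it the log2 fold change was 0.42; the other 4-week libraries were above all of the 2-week ones. Ndufb8, also of the distal arm, went from 166, 123, 149.7 and 132 to 269.5, 188 and 178 CPM (log2 fold change 0.57, SE 0.13, adjusted p = 0.033 by edgeR). Of the core, Ndufs7 went from 128, 115, 130.3 and 119.7 to 189.6, 168 and 147 CPM (log2 fold change 0.45, SE 0.10, adjusted p = 0.033 by edgeR). Ndufv1 went from 172, 149, 167 and 179.9 to 278, 204 and 217 CPM, with a log2 fold change of 0.48 (SE 0.12, adjusted p = 0.037 by edgeR). For each of these genes the 2 groups did not overlap. The other members that passed were Ndufa11 and Ndufa3 of the proximal arm, Ndufc1, Ndufb7 and Ndufb1-ps of the membrane arm, the Q module subunit Ndufa5, and Ndufa4. Their log2 fold changes ran from 0.53 (Ndufa4) to 0.64 (Ndufc1), with adjusted p between 0.033 and 0.0484 by edgeR. Without Il1r1KO_4w 5, the log2 fold changes of Ndufb8, Ndufa11, Ndufc1, Ndufb7 and Ndufa4 were 0.35, 0.36, 0.35, 0.33 and 0.32.

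Other core subunits showed a range of sizes without passing the test. Ndufv2 had log2 fold changes of 0.37, 0.45 and 0.49 in VF, Il1bKO and Il1r1KO, Ndufs8 0.24, 0.33 and 0.37, and Ndufs3 0.18, 0.18 and 0.20. Ndufs1 was -0.06 in Il1bKO but 0.24 and 0.31 in VF and Il1r1KO.

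Counted by library, all 4-week values lay above all 2-week values for 25 subunits and 1 Ndufaf factor in VF (7.39% of all genes), 20 and 2 in Il1bKO (7.65%) and 23 and 5 in Il1r1KO (9.17%). No member had all 4-week values below all 2-week values, as 6.99%, 8.2% and 7.58% of all genes had. The groups of all 3 genotypes were separated in this way for 7 members, the N module subunits Ndufa12, Ndufv1 and Ndufv2, the proximal arm subunits Ndufa8 and Ndufa13, and Ndufb7 and Ndufb8. The 3 contrasts use different libraries, but all share the batch.

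Of the members that passed, promoters are shown for the 3 with a match to the NRF1 core (Ndufb6, Ndufb8 and Ndufa11) and for Ndufb2, which passed in both knockouts and has none of the motifs searched. Capitals mark the NRF1 core GCGCATG, the ETS core CCGGAAG, the YY1 core ATGGCGG and the SP1 GC box GGGCGG on either strand; NRF1 and the ETS factor GABPA are known regulators of nuclear respiratory genes. Each sequence is 300 bases from RefSeq (GRCm38.p6), 250 before and 50 after the gene's start, read 5′ to 3′ on the gene's strand, at chr4:40279372-40279671 (minus strand) for Ndufb6, chr19:44555393-44555692 (minus) for Ndufb8, chr17:56717512-56717811 (plus) for Ndufa11 and chr6:39592315-39592614 (plus) for Ndufb2.
Ndufb6: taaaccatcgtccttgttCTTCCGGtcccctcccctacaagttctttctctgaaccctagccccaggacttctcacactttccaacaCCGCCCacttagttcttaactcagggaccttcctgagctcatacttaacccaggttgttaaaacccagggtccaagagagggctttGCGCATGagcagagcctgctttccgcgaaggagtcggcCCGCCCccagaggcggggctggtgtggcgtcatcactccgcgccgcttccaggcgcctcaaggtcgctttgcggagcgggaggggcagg
Ndufb8: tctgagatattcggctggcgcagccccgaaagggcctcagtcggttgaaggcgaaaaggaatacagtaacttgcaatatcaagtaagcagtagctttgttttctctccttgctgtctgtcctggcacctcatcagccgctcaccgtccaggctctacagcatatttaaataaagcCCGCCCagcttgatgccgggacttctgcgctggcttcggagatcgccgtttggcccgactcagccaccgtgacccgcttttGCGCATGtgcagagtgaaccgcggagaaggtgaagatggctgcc
Ndufa11: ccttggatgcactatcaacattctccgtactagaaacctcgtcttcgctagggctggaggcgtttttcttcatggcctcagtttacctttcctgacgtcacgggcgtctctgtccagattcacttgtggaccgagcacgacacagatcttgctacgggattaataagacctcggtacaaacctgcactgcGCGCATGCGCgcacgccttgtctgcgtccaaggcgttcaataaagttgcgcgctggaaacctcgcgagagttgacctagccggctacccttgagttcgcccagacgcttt
Ndufb2: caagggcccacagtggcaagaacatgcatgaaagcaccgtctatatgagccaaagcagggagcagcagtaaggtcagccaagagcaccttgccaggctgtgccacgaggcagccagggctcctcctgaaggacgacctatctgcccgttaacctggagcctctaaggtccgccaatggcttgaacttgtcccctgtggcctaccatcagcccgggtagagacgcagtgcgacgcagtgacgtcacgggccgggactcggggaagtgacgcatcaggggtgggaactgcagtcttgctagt
In Ndufa11 the capitals run on because the NRF1 core is there on both strands, overlapping itself.

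A promoter was matched for 41 of the 46 members (43 windows). The NRF1 core was in 16.3% of these windows, 3.91% of all 32851 promoters of the table and 6.60% of those of genes in the counts table. The YY1 core was in 25.6%, 4.06% and 7.59% in the same order. The ETS core was in 14.0%, 8.86% and 16.6%, and the SP1 GC box in 51.2%, 35.7% and 60.5%. These shares are a description of letters in the windows and were not tested.

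Other parts of the respiratory chain gave a context for the subunits. Of the 7 mitochondrially encoded complex I genes, 0 passed between the weeks in any genotype, and their medians were 0.04, 0.07 and 0.01 on the log2 scale in VF, Il1bKO and Il1r1KO, where the nuclear subunits were at 0.23, 0.34 and 0.46. For mt-Nd1 the log2 fold changes were 0.24, 0.11 and 0.34, and for mt-Nd4 0.06, -0.05 and -0.01. The difference between nuclear and mitochondrial genes was not tested. The 38 tested nuclear subunits of complexes II to V had medians of 0.20, 0.32 and 0.49, and 0, 0 and 13 passed, all higher. Among them were Atp5k of ATP synthase, with a log2 fold change of 0.79 in Il1r1KO (adjusted p = 0.0317 by edgeR), and Uqcr11 of complex III, with 0.65 (adjusted p = 0.0191 by edgeR). Without Il1r1KO_4w 5 their count in Il1r1KO was 0 (10 of all genes passed) and their median 0.28. Of 14 other complex I assembly factors 13 were tested, 0 passed, and the medians were 0.06, 0.15 and 0.16. The 11 regulators of mitochondrial biogenesis, among them Nrf1, Gabpa, Esrra and Ppargc1a, had 0 that passed and medians of 0.04, 0.003 and 0.07.

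Markers of cell type also differed between the weeks. Stem cell markers were lower at 4 weeks for 11, 11 and 12 of 13 genes in VF, Il1bKO and Il1r1KO, with medians of -0.22, -0.32 and -0.30, and 1 passed, Mecom in Il1r1KO (-1.09, adjusted p = 0.0127 by edgeR). Their summed level was 3569 to 4252 CPM at 2 weeks and 3205 to 3463 at 4 weeks in VF, 3683 to 4311 and 2904 to 3370 in Il1bKO, and 3453 to 3803 and 2546 to 3103 in Il1r1KO. The summed level of 11 erythroid markers overlapped between the weeks in each genotype (in Il1r1KO 1710 to 3056 and 2072 to 3027 CPM). Of these markers 8, 7 and 9 were higher at 4 weeks in VF, Il1bKO and Il1r1KO, with medians of 0.70, 0.38 and 1.01, and 0 passed. One of them, Gata1, a regulator of erythroid, megakaryocyte and mast cell genes that was picked out after its values were seen, was at 41.5 to 80.7 CPM at 2 weeks and 97.5 to 156 at 4 weeks in Il1r1KO, 30.6 to 80.83 and 80.84 to 106 in Il1bKO, and 38.6 to 62.0 and 52.4 to 189 in VF. The 5 mast cell and basophil markers in the table summed to 4.48 to 8.89 CPM at 2 weeks and 10.7 to 74.9 at 4 weeks in VF, without overlap, and their ranges overlapped in Il1bKO (6.44 to 32.9 and 12.2 to 53.7) and Il1r1KO (1.57 to 7.08 and 5.46 to 10.6), where Mcpt8 and Prss34 were at 0 at 4 weeks. The 12 neutrophil and monocyte markers in the table summed to 764 to 826 and 417 to 694 CPM in VF, and their ranges overlapped in both knockouts (Il1r1KO 566 to 867 and 491 to 719). The 8 megakaryocyte markers summed to 320 to 683 and 439 to 2336 in VF, to 420 to 889 and 335 to 457 in Il1bKO, and to 346 to 1219 and 808 to 1126 CPM in Il1r1KO. Of 7 T and NK cell markers only Nkg7 was in the table, at 19.7 to 31.5 and 55.9 to 107 CPM in Il1r1KO, and with ranges that overlapped in VF and Il1bKO. The part of these cells in the result was not tested.

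**Figure D4:**
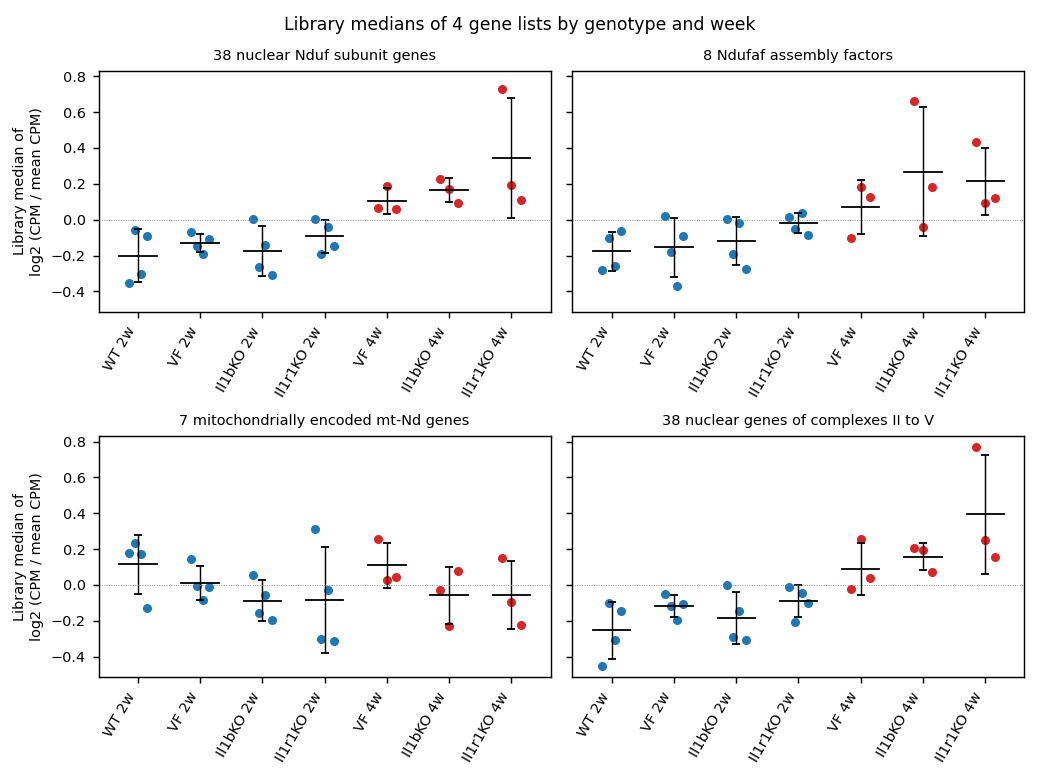
Median over the genes of 4 lists of log2 (normalised CPM over the gene's mean), 1 point per library, by genotype and week (blue 2 weeks, red 4 weeks; line and bar, mean ± SD of 3 or 4 libraries). The nuclear subunits lie higher at 4 weeks, to 0.73 in Il1r1KO_4w 5, and the mitochondrially encoded genes show no such step.

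For no member was the difference between the weeks shown to depend on the genotype. Whether the Il1bKO or the Il1r1KO difference from VF changed with time was tested as an interaction, and 0 of 46 members passed in either (0.0147% and 0% of all genes, by edgeR), with 2 and 0 subunits at an unadjusted p under 0.05 (8.28% and 5.32% of all genes). The subunit medians of these differences were 0.09 for Il1bKO and 0.23 for Il1r1KO, and the latter was 0.02 without Il1r1KO_4w 5.

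VF could be compared with the libraries labelled WT at 2 weeks alone. The 2 groups also differed in CreERT2 reads (0 to 1 in WT, 6132 to 10208 in VF). This difference and mutant JAK2 cannot be told apart here. In that comparison, 31 of 38 subunits had a higher fitted level in VF, with a median log2 fold change of 0.06. So had 4 of 8 Ndufaf factors, with a median of 0.003. By edgeR 0 of 46 members passed (0.00734% of all genes), and 0 were at an unadjusted p under 0.05 (2.27% of all genes). The lowest bound of any subunit's 95% interval was -0.36 and the highest was 0.66. Intervals of single subunits were narrower, such as -0.03 to 0.66 for Ndufa1 and -0.35 to 0.16 for Ndufv3. The size of a difference is known no more closely than its own interval. Without WT_2w 3 and WT_2w 4, which had the fewest GFP reads (83 and 1345), the count was also 0 and the subunit median 0.07. With 1 library left out the median ran from 0.01 (without WT_2w 1) to 0.11 (without WT_2w 2). Stem cell markers were lower in VF for 12 of 13 genes, with a median of -0.23 and summed levels of 3919 to 5181 CPM in WT and 3569 to 4252 in VF. Of 12 neutrophil and monocyte markers 11 were higher in VF (median 1.48, summed levels of 579 to 897 and 764 to 826 CPM). Of 11 erythroid markers 9 were higher in VF (median 0.59), but their summed level was lower in its mean (2452 against 2814 CPM). It ran from 2527 to 3268 CPM in WT and from 2203 to 2556 in VF. None of these markers passed, and their part in the medians of the members was not tested. The lowest p was that of Ndufa1, a small subunit of the proximal arm encoded on the X chromosome. It was at 34.2, 49.9, 43.8 and 43.9 CPM in WT and at 55.8, 51.9, 51.1 and 55.4 CPM in VF. It was the only member whose groups did not overlap (1.87% of all genes as higher), and the log2 fold change was 0.32 (SE 0.17, adjusted p = 1.0 by edgeR). Ndufa9 and Ndufa11 followed with 0.18 and 0.20, and the lowest p among those lower in VF were Ndufs1 (-0.12), Ndufv3 (-0.10) and Ndufb10 (-0.07).

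Loss of Il1b in mutant cells was compared with VF in each week and over both. By edgeR 0 of 46 members passed over both weeks (0.139% of all genes), 0 at 2 weeks (0.00734%) and 0 at 4 weeks (0.125%). The subunit medians were 0.02 over both weeks, -0.05 at 2 weeks and 0.07 at 4 weeks. With 1 library left out they ran from 0.000635 (without Il1bKO_2w 1) to 0.0389, from -0.12 (without Il1bKO_2w 1) to 0.00042 (without Il1bKO_2w 4), and from 0.0246 (without Il1bKO_4w 5) to 0.12 (without VF_4w 6). There were 0, 0 and 2 subunits at an unadjusted p under 0.05 (9.38%, 1.36% and 14.7% of all genes). The 2 subunits were Ndufb2 and Ndufa13. Ndufaf factors were under 0.05 too, among them Ndufaf2 and Ndufaf1 over both weeks (unadjusted p = 0.0304 and 0.0379 by edgeR). At 4 weeks Ndufaf1 was (unadjusted p = 0.0192 by edgeR). Ndufb2 was higher at 4 weeks by 0.37 (SE 0.13, adjusted p = 0.187 by edgeR), with its 3 Il1bKO values above the 3 of VF. Ndufa13 was higher by 0.36 (SE 0.14, adjusted p = 0.243 by edgeR), or 0.13 without Il1bKO_4w 5. In all 4 subunits and 1 Ndufaf factor had every Il1bKO library above every VF library at 4 weeks (5.72% of all genes), and no member did at 2 weeks (1.56% of all genes). Among the members lower at 4 weeks, Ndufaf7 had the lowest p, with -0.27 (SE 0.16, adjusted p = 0.43 by edgeR). Ndufv3 followed with -0.19 (SE 0.14, adjusted p = 0.546 by edgeR). Ndufb1-ps was at -0.22 (SE 0.16, adjusted p = 0.549 by edgeR), but at 0.05 without VF_4w 6, Il1bKO_4w 5 and Il1r1KO_4w 5. Over both weeks the Ndufaf factors were at a median of 0.09, with Ndufaf2 at 0.30 and Ndufaf1 at 0.28 (adjusted p = 0.49 and 0.505 by edgeR), or 0.20 and 0.11 without Il1bKO_4w 5.

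Loss of Il1r1 in mutant cells was compared with VF in the same way, and no member passed. Over both weeks 38 of 38 subunits and 8 of 8 Ndufaf factors were higher in Il1r1KO, with medians of 0.14 and 0.16, and 0 of 46 passed (0.169% of all genes). The unadjusted p was under 0.05 for 9 subunits and 2 Ndufaf factors, against 11.4% of all genes. At 2 weeks 0 passed (0.0514%), with medians of 0.07 and 0.14 and 1 subunit at an unadjusted p under 0.05 (3.15%). At 4 weeks 0 passed (0.147%), with medians of 0.25 and 0.13, and 10 subunits and 2 Ndufaf factors were at an unadjusted p under 0.05 (12.7%). The 4-week difference was smaller without Il1r1KO_4w 5. There the subunit median was 0.05 and 24 of 38 subunits were higher, 0 of them at an unadjusted p under 0.05 (1445 of all genes were). Over both weeks, without that library, the median was 0.04 with 29 of 38 higher. The largest values at 4 weeks were 0.52 for Ndufc1 (SE 0.19, adjusted p = 0.255 by edgeR) and 0.48 for Ndufa5 (SE 0.17, adjusted p = 0.245 by edgeR), or 0.23 and 0.31 without Il1r1KO_4w 5. For 7 subunits and 1 Ndufaf factor every Il1r1KO library lay above every VF library at 4 weeks (6.46% of all genes), and for 1 and 1 at 2 weeks (1.92%).

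The 2 knockouts were also set against each other over both weeks. By edgeR 0 of 46 members passed (0.176% of all genes), with 10 subunits and 1 Ndufaf factor at an unadjusted p under 0.05 against 14.1% of all genes. The subunit median was -0.14 in Il1bKO against Il1r1KO, with 36 of 38 lower, and -0.03 with 22 of 38 lower without Il1r1KO_4w 5. Ndufaf7, a methyltransferase that acts in the assembly of the complex, had the lowest p with -0.34 (SE 0.11, adjusted p = 0.207 by edgeR). At 4 weeks it was at 30.1, 44.2 and 48.2 CPM in Il1bKO and at 67.5, 59.4 and 65.4 CPM in Il1r1KO, and at 2 weeks the groups overlapped. Ndufv3 was at -0.29 and Ndufs1 at -0.25 (adjusted p = 0.213 and 0.215 by edgeR). Between the knockouts, the nuclear subunits of complexes II to V were at a median of -0.18, with 38 of 38 lower and 0 passing.

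The 4 members within 30 Mb of a knocked-out gene were looked at one by one. Ndufb3, a distal arm subunit, lies 18.3 Mb from Il1r1 at chr1:58586384-58595964, and Ndufs1, the largest iron-sulphur subunit of the N module, 22.8 Mb from it at chr1:63143596-63176833 (mm10). Ndufaf1, which helps to build the membrane arm, lies 9.70 Mb from Il1b at chr2:119655446-119662827, and Ndufaf5, a modifying enzyme of Ndufs7, 10.8 Mb from it at chr2:140170649-140203689.

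Ndufs1 had the lowest p of any member between genotypes. In VF it was at 140.3, 146, 125 and 148 CPM at 2 weeks and 168, 165 and 165 CPM at 4 weeks. In Il1r1KO it was at 172, 139, 175 and 178 CPM at 2 weeks and at 226, 210.0 and 180.2 CPM at 4 weeks. All 4-week Il1r1KO values lay above those of VF, while at 2 weeks the library at 139 fell among the VF values. Over both weeks the log2 fold change was 0.27 (SE 0.08, adjusted p = 0.197 by edgeR), with an unadjusted p of 0.00241. It passed under limma voom with quality weights alone (0.28, adjusted p = 0.0298), where 321 of all genes passed, against 23 by edgeR. In Il1bKO it was at 166, 164, 148 and 159 CPM at 2 weeks and 135, 174 and 147 CPM at 4 weeks, and in WT at 142.5, 166, 129.5 and 171 CPM. The levels of Ndufb3 at 2 weeks were 70.4 ± 4.24 CPM (SD, n = 4) in VF and 71.1 ± 4.15 CPM (n = 4) in Il1r1KO, and at 4 weeks 136, 80.3 and 78.6 CPM in Il1r1KO against 81.8, 87.7 and 77.8 CPM in VF.

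On chromosome 2, Ndufaf1 was at 42.9, 56.4 and 62.9 CPM in VF at 4 weeks and at 106, 63.0 and 56.5 CPM in Il1bKO, where the highest value is that of Il1bKO_4w 5. The groups overlapped, and the log2 fold change was 0.48 (SE 0.19, adjusted p = 0.248 by edgeR), or 0.14 without that library. Ndufaf5 was at 26.6, 18.2, 22.5 and 14.4 CPM in Il1bKO at 2 weeks and 35.1, 20.96 and 25.5 CPM at 4 weeks.

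**Figure D5:**
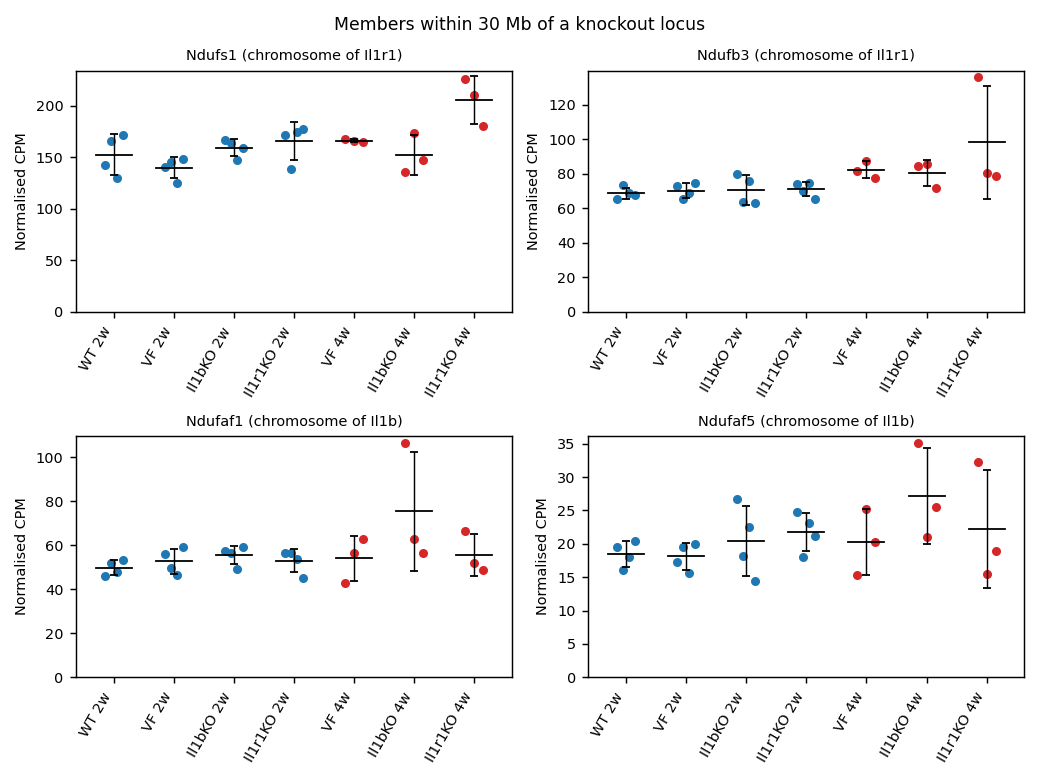
Normalised CPM of the 4 members near a knocked-out gene, 1 point per library (blue 2 weeks, red 4 weeks; line and bar, mean ± SD of 3 or 4 libraries). Ndufs1 is higher in Il1r1KO than in VF at 4 weeks (180.2 to 226 against 165 to 168 CPM), and 1 Il1bKO library stands out at 106 CPM for Ndufaf1.

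Of the other assembly factors, Ndufaf4, which works on the Q and membrane modules, was the highest in CPM (77.5, 51.1 to 106 over the libraries), and Ndufaf8, a partner of Ndufaf5, the lowest (17.7, 12.1 to 29.4). Ndufaf6 came nearest to passing between the weeks, in Il1bKO with a log2 fold change of 0.68 (SE 0.17, adjusted p = 0.0558 by edgeR) and from 22.7 ± 3.71 CPM (SD, n = 4) to 36.3 ± 4.28 CPM (n = 3), while it was 0.32 in VF and 0.31 in Il1r1KO. Ndufaf2, which stays on the late assembly intermediate before the complex is finished, had 0.29, 0.57 and 0.46. Ndufaf3 had -0.08, -0.09 and 0.21 and Ndufaf7 0.11, -0.23 and 0.39, so that these 2 were the factors that were not higher in all 3 genotypes. The medians of the 8 factors between the weeks were 0.23, 0.43 and 0.26 in VF, Il1bKO and Il1r1KO, and the Il1bKO value was 0.15 without Il1bKO_4w 5.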

How the data were processed

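Read counts per gene of 25 libraries were used as deposited by the authors (13641 genes and 4 construct sequences, which stayed out of the gene tests). Per the labels, the kit was SMART-Seq v4, run on polyA RNA without strand. Per the submitters' processing notes the build was mm10, and the tools included featureCounts (version not given in the sources used here), STAR 2.7.10a and FastQC 0.11.5 besides R 4.2.2. Genes with few reads had been left out before deposit, since the lowest maximum count of any gene was 32. Symbols and positions (mm10) came from GENCODE vM21 for 13623 genes. Members were matched by symbol prefix, and the modules and comparison lists were written from general knowledge; members and lists were chosen with earlier results of these data known.

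The robust quasi-likelihood test of edgeR 4.0.16 (R 4.3.3) was run on the counts after filterByExpr, which left 13630 genes, with TMM scaling and 1 fit of the 7 groups, and with Benjamini-Hochberg adjustment over all genes at 0.05. The common dispersion was 0.169. The script was tested on simulated data. CPM and SD are over libraries, and log2 fold changes and SE are of the fit. Differences over both weeks are the mean of the 2 within-week differences. No label says that each sample is a separate mouse, so p measures the spread between these samples, which may be technical. The values of 1 member and 1 marker are not reported here, and counts and medians over the members hold all 46. Named genes were the core subunits, members past the threshold, and members within 30 Mb of a knocked-out gene. Of the 3 of lowest p in each direction per genotype comparison, some but not all were named. Per-library values of other members were chosen after their values were seen. Alternatives were DESeq2 1.42.0, voom with quality weights in limma 3.58.1, scaling by upper quartiles or RLE, no filter, CPM of at least 5 in 3 libraries, only the groups compared, a replicate block, each library left out, and 2 sets of libraries left out. Library totals ran from 21990959 to 40178173 reads.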

Additional observations from a re-analysis of the deposited data

Results flagged for a closer look

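In groups of 4 libraries, 10 of 184 sets of values held a library far from the other 3 (gap to range above 0.829). The sets were those of 45 members and of the subunit median, and all 10 were of members. Chance flags about 1 in 20, but the sets share the same libraries and are not independent. In WT, replicate 1 was low for Ndufab1 (38.1 CPM, others 51.5 to 52.7), and replicate 2 was high for Ndufa3 (97.6, others 76.9 to 79.8). In VF at 2 weeks, replicate 1 was high for Ndufaf6 (29.2, others 20.2 to 21.4) and replicate 3 was low for Ndufs5 (11.9, others 13.9 to 14.2). In Il1bKO at 2 weeks, replicate 1 was high for Ndufb9 (171, others 159 to 161), Ndufa11 (69.9, others 52.6 to 54.5) and Ndufc2 (152, others 125 to 129). In Il1r1KO at 2 weeks, replicate 2 was low for Ndufs1 (138.5, others 172 to 178) and Ndufab1 (45.3, others 52.1 to 53.3), and replicate 4 for Ndufaf3 (28.0, others 30.8 to 31.2).

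Outside the gene tests, the construct sequences separated the mutant libraries from WT. The lowest of the 21 mutant libraries had 1782 reads of the human JAK2 V617F sequence of exons 3 to 12 (WT 1 to 20), 918 of exons 13 to 25 (WT 0 to 5) and 5382 of CreERT2 (WT 0 to 1).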

How the results depend on the processing

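Of 35 other settings, 25 left out 1 library and 10 changed the method or left out several. Between genotypes, the count of members that passed stayed at 0 in every setting that could be run, except 1 (Ndufs1) for Il1r1KO against VF over both weeks with limma voom. In that setting 321 of all genes passed, against 23 in the main fit. Between the weeks, the Il1bKO count of 2 became 10 with DESeq2 and 0 with only the groups compared, and ran from 0 to 12 with 1 library left out. The Il1r1KO count of 12 became 19 with DESeq2, 7 with limma voom, 0 with only the groups compared and 0 without the 3 libraries VF_4w 6, Il1bKO_4w 5 and Il1r1KO_4w 5, and ran from 0 to 24 with 1 library left out. The number of all genes that passed moved too. In Il1bKO it was 102 in the main fit, 607 with DESeq2 and 4 with only the groups compared. In Il1r1KO it was 335 in the main fit, 928 with DESeq2 and 518 with limma voom. There it was 39 with only the groups compared and 119 without the 3 libraries. The settings with only the groups compared or with libraries left out hold fewer libraries, and the cause of the other differences was not tested. The subunit median between the weeks in Il1r1KO was 0.25 without the 3 libraries and ran from 0.24 to 0.57 with 1 library left out. That of Il1r1KO against VF at 4 weeks ran from 0.0462 to 0.35, and that of its dependence on time from 0.0246 to 0.34, each lowest without Il1r1KO_4w 5. The Ndufaf median of Il1bKO against VF at 4 weeks ran from 0.12 to 0.31 and that between the weeks in Il1bKO from 0.15 to 0.56. Ndufb1-ps in Il1bKO against VF at 4 weeks turned from -0.22 to 0.0459 without the 3 libraries. Same-numbered samples did not vary together (33 pairs, correlations of -0.148 to 0.08), and with the replicate number as a block the counts between genotypes stayed at 0; the weeks share no number, so that comparison could not be fitted with the block. The smallest member count was 305 reads.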
